A study of Bos taurus with 8 samples.

Results

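The 46 genes described here drive the cell cycle and DNA replication: cyclins and their kinases, the E2F factors, the replication licensing machinery, the enzymes that make DNA and its building blocks, the mitotic regulators and the cell cycle inhibitors. They were chosen by name from the table of gene counts, which lists 32640 genes, of which 32637 carry values. All 46 were detected well enough to be tested, among 15744 genes tested in all. RNA was sequenced from bovine embryonic stem cells (bESCs) of the 4 lines A, C, D and E, all of XX genotype and derived from an early or full blastocyst produced in vitro. Every line was sampled in 2 conditions, so that the 8 libraries form 4 pairs, and each line counts as 1 biological replicate (n = 4 per condition). In the first condition (MEF), cells grew at 5% O2 on irradiated CF1 mouse embryonic fibroblasts, a layer of growth-arrested feeder cells, and were at passages 15 to 17. In the second (feeder-free), the same lines grew at 5% O2 on the matrix protein vitronectin and were at passages 20 to 22. Both conditions used NBFR medium with FGF2 and the WNT inhibitor IWR-1, and cells of both had been passaged with a ROCK inhibitor. The methods name Activin A as a supplement of the feeder-free medium, whereas the labels give the same medium code for both conditions. The matrix, the feeders, the later passage and any difference in Activin A cannot be told apart. The comparison asks whether the transcripts of each phase of the cycle were at the same level once the feeders were gone.

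A cell that commits to division raises cyclin D with CDK4 and CDK6, then cyclin E with CDK2, which phosphorylate the RB family of pocket proteins and free the E2F factors to switch on genes for DNA synthesis. Origins of replication are licensed by ORC, CDC6 and CDT1, which load the MCM2 to MCM7 helicase, and geminin (GMNN) blocks licensing again once S phase has begun. Cyclin B with CDK1 then drives mitosis, and the spindle checkpoint holds the cell until every chromosome is attached. Pluripotent stem cells are known for a short G1 phase and for keeping many of these genes on throughout the cycle.

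Library totals ran from 44268717 to 102351560 counts, the highest being the feeder-free library of line D and the next highest 54296425. Levels are given as CPM (counts scaled to a common library total), scaled between libraries by TMM (trimmed mean of M-values). A gene was called when its Benjamini-Hochberg adjusted p in edgeR's quasi-likelihood test was below 0.05 and its fold change was at least 1.5, or 0.58 on the log2 scale. Unless stated otherwise the test treated the libraries as unpaired, since the study's methods name no term for the line, and "paired" marks the same test with the line as a replicate block. All fold changes are feeder-free over MEF on the log2 scale, and intervals are 95% intervals. The labelled cell type was checked against 6 pluripotency genes, POU5F1, SOX2, NANOG, LIN28B, SALL4 and DNMT3B, whose summed level was 4282 to 5053 CPM on MEF and 3749 to 4534 CPM in feeder-free libraries. The sum was lower feeder-free in every line. Of the 6 genes, 4 (SOX2, NANOG, LIN28B and SALL4) were lower in all 4 lines and at an unadjusted p below 0.05 in edgeR. Over all genes tested, 20.7% were lower in all 4 lines and 11.4% were lower at that p. None of the 6 was called unpaired, since SALL4, with an edgeR adjusted p of 0.0426, was short of the fold required, and the list's median fold change was -0.32. In the paired edgeR test 3 of the 6 were lower at an adjusted p below 0.05, against 8.12% of all genes, and 0 met the fold required. The part of this shift in the values of the 46 genes was not tested. The 12 fibroblast markers were all detected, with a summed level of 366, 481, 447 and 442 CPM on MEF in lines A, C, D and E and of 195, 801, 1216 and 346 CPM feeder-free. Without feeders the sum was thus higher than on MEF in lines C and D, whereas lines A and E had less. The 12 markers did not share a direction, with 7 fold changes above 0 and 5 below, from -4.08 to 2.61. The sum therefore does not stand for each marker. COL1A2 averaged 2.71 CPM on MEF and 0.157 CPM feeder-free and had no count in the feeder-free library of line A, and POSTN had none in 3 libraries.

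Across the 46 genes, few transcripts differed between the conditions in the unpaired test, whose error includes the spread between lines. More members, and more of all genes, passed once the lines were paired. Only cyclin E2 was called higher and none was called lower, against 0.724% of all genes tested called higher and 1.00% called lower. Without the fold requirement the counts were the same, against 0.749% and 1.18% of all genes. At an unadjusted p below 0.05 in the same edgeR test, 7 were higher (CCNE1, CCNE2, ORC6, GMNN, PCNA, RRM2 and TYMS) and 3 were lower (E2F3, TOP2A and PLK1), against 10.2% and 11.4% of all genes. Those 10 are 21.7% of the list, and 21.6% of all genes tested were past the same line. With the lines paired, CCNE2 and ORC6 were called higher and CCND1 lower, where 5.52% of all genes were called higher and 4.53% lower. Dropping the fold requirement in the paired test, 6 genes were higher (CCNE2, ORC6, CDC6, GMNN, PCNA and RRM2) and 4 lower (CCND1, E2F3, ORC1 and TOP2A), against 7.67% and 8.12% of all genes. The members' median fold change was 0.06, beside 0.01 for all genes tested, and single genes ranged from -1.10 to 0.84. In bulk RNA, a change in the number of cells in a phase cannot be told apart from a change in RNA per cell.

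**Figure D1:**
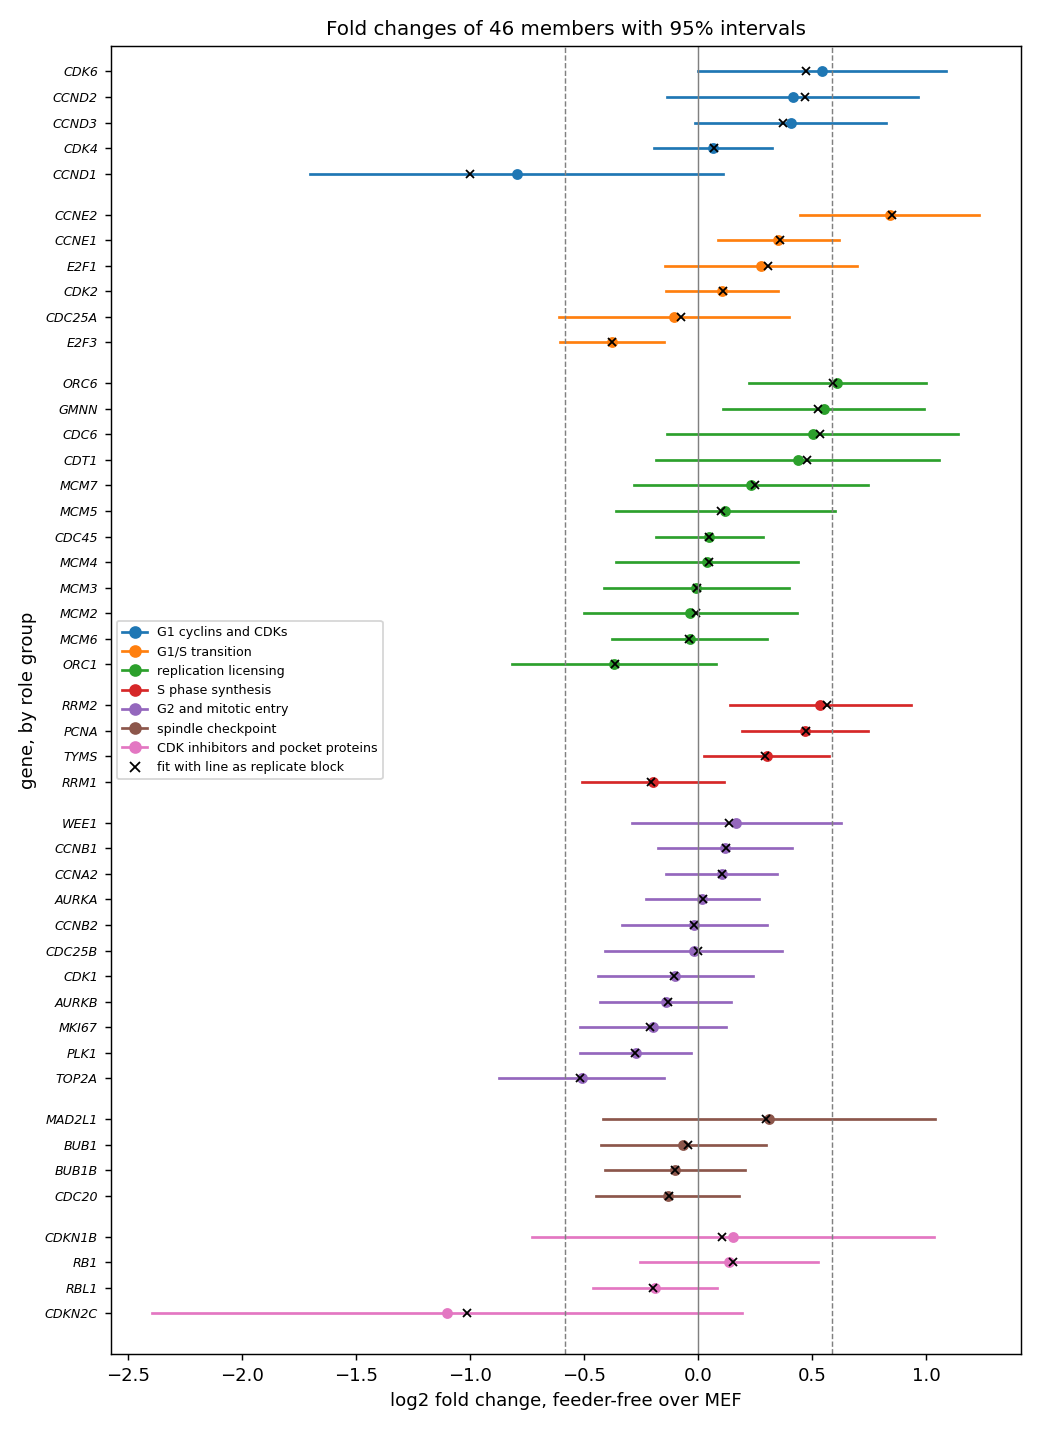
Fold changes of the 46 genes, grouped by role, on the log2 scale (horizontal axis, feeder-free over MEF), with points for the unpaired edgeR estimate, bars for its 95% interval, crosses for the paired estimate and dashed lines at a fold of 1.5. Most points lie between the dashed lines. CCNE2 (0.84) and ORC6 (0.61) lie beyond the right line, and CCND1 (-0.80) and CDKN2C (-1.10) beyond the left line with wide intervals.

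For many members the interval bounds the size of any change. It lay wholly within a fold of 1.5 in either direction for 23 of the 46 genes (50.0%), against 26.5% of all genes tested. The members were also more abundant than most genes, with a median of 98.4 CPM against 17.7 CPM, and the background was not matched on level. Among the 23 were 4 MCM subunits, CDC45, CDK1, CDK2, CDK4, the cyclins A2, B1 and B2, both aurora kinases, BUB1, BUB1B and MKI67. Spread over the lines was moderate: the highest line exceeded the lowest by a median factor of 1.39 on MEF and 1.39 feeder-free. CDC45, a helicase cofactor, was the most even on MEF with a factor of 1.05, and CDKN2C the least even with 4.03.

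Among the 5 G1 cyclins and CDKs, the median fold change was 0.41, with 4 genes above 0 and cyclin D1 far below. CCND1, the cyclin that couples growth factor signals to the G1 kinases (chromosome 29, bases 46889102 to 46898563 of ARS-UCD2.0, its span overlapping LTO1), had 31.6, 21.0, 27.2 and 22.9 CPM on MEF in lines A, C, D and E. Feeder-free it had 10.1, 6.12, 28.3 and 14.5 CPM. The level was lower without feeders in lines A, C and E and about equal in line D, whose feeder-free library was the highest of the 4, so that the groups overlapped. The mean was 25.7 ± 4.69 CPM on MEF and 14.8 ± 9.67 CPM feeder-free (SD, n = 4), a fold change of -0.80 (SE 0.40, interval -1.70 to 0.11, edgeR adjusted p = 0.293). In the paired edgeR test it was -1.0 (interval -1.62 to -0.38, adjusted p = 0.0388), which passed the threshold. That call rested on lines A, C and E together: without line A, C or E the paired adjusted p was 0.124, 0.163 or 0.0730, and without line D the fold change was -1.36 with an adjusted p of 0.00841.

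The other 4 G1 genes had fold changes above 0, and CDK6 and CCND2 differed most in lines C and D. CDK6, a kinase partner of the D cyclins (chromosome 4, bases 9929524 to 10189974, its span overlapping lncRNA genes), had 24.3, 27.3, 29.1 and 25.6 CPM on MEF in lines A, C, D and E, and 22.9, 52.8, 47.4 and 31.6 CPM feeder-free. Lines C and D stood highest without feeders and line A was slightly lower than on MEF, so the groups overlapped. The fold change was 0.54 (SE 0.24, interval -0.00 to 1.08, edgeR adjusted p = 0.232), and 0.47 when paired (adjusted p = 0.0864). Without line A, the paired value was 0.65 with an edgeR adjusted p of 0.0333, which would be called. CCND2 and CCND3, the other D cyclins, had fold changes of 0.41 (interval -0.14 to 0.96) and 0.41 (-0.01 to 0.82). Within the lines, CCND2 differed by 0.02, 0.90, 1.01 and -0.07 in A, C, D and E, and CCND3 by -0.13, 0.56, 0.58 and 0.46. CDK6 was highest feeder-free in lines C and D, and CCND2 differed most from MEF there. In those lines the summed fibroblast markers were also higher feeder-free, and their part in these values was not tested. CDK4 was even, at 110.9 ± 13.0 CPM on MEF and 115.9 ± 5.70 CPM feeder-free, a fold change of 0.06 (interval -0.19 to 0.32).

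Cyclin E2 was the member called in both the unpaired and the paired test. CCNE2, which with CDK2 triggers entry into S phase (chromosome 14, bases 69448175 to 69460836, its end overlapping INTS8), had 5.40, 7.94, 8.03 and 7.25 CPM on MEF in lines A, C, D and E. In feeder-free conditions it had 13.96, 12.3, 12.2 and 12.7 CPM. Every feeder-free library lay above every MEF library, as for 6.21% of all genes tested, and line A moved from the lowest on MEF to the highest feeder-free. The mean rose from 7.15 ± 1.22 to 12.8 ± 0.800 CPM (SD, n = 4), a fold change of 0.84 (SE 0.17, interval 0.45 to 1.23) with an edgeR adjusted p of 0.0486. Leaving out any 1 of the 8 libraries kept the fold change between 0.73 and 0.90 but took the adjusted p to between 0.0602 and 0.130. Over all genes tested, most of these fits called at most 1 gene higher and 5 lower, against 114 and 158 with every library kept. In those fits the loss of the call is thus not particular to CCNE2. Dropping line A's feeder-free sample instead gave 259 higher and 231 lower, and there the edgeR adjusted p of CCNE2 was 0.0602. In the paired edgeR test CCNE2 had a fold change of 0.85 (adjusted p = 0.0142). With any 1 line left out it stayed called, at 0.68 to 0.94 with adjusted p of 0.0349 to 0.0406.

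The paralog CCNE1 stood in the same order at a smaller size. It had 42.5, 52.4, 51.7 and 40.5 CPM on MEF and 56.4, 58.2, 62.5 and 61.4 CPM feeder-free in lines A, C, D and E, again without overlap, for a fold change of 0.35 (edgeR adjusted p = 0.128). Their shared kinase CDK2 was even, with a fold change of 0.10 (interval -0.14 to 0.35). E2F3, an activator of S phase genes (chromosome 23, bases 37485141 to 37569476), went the other way. It had 48.1, 52.1, 48.5 and 54.0 CPM on MEF and 41.8, 37.1, 37.1 and 40.1 CPM feeder-free. All 4 feeder-free libraries lay below all 4 MEF libraries, as for 8.36% of all genes tested, and the fold change was -0.38 (SE 0.10, interval -0.61 to -0.15, edgeR adjusted p = 0.0784). Paired, it was also -0.38 with an adjusted p of 0.0473, short of the fold required, and with any 1 line left out the edgeR adjusted p was 0.0545 to 0.199. E2F1, the other E2F activator on the list, had a fold change of 0.27 (interval -0.15 to 0.70), and CDC25A, the phosphatase that activates CDK2, one of -0.11 (-0.61 to 0.40), so that the 6 genes of the G1/S transition shared no direction.

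**Figure D2:**
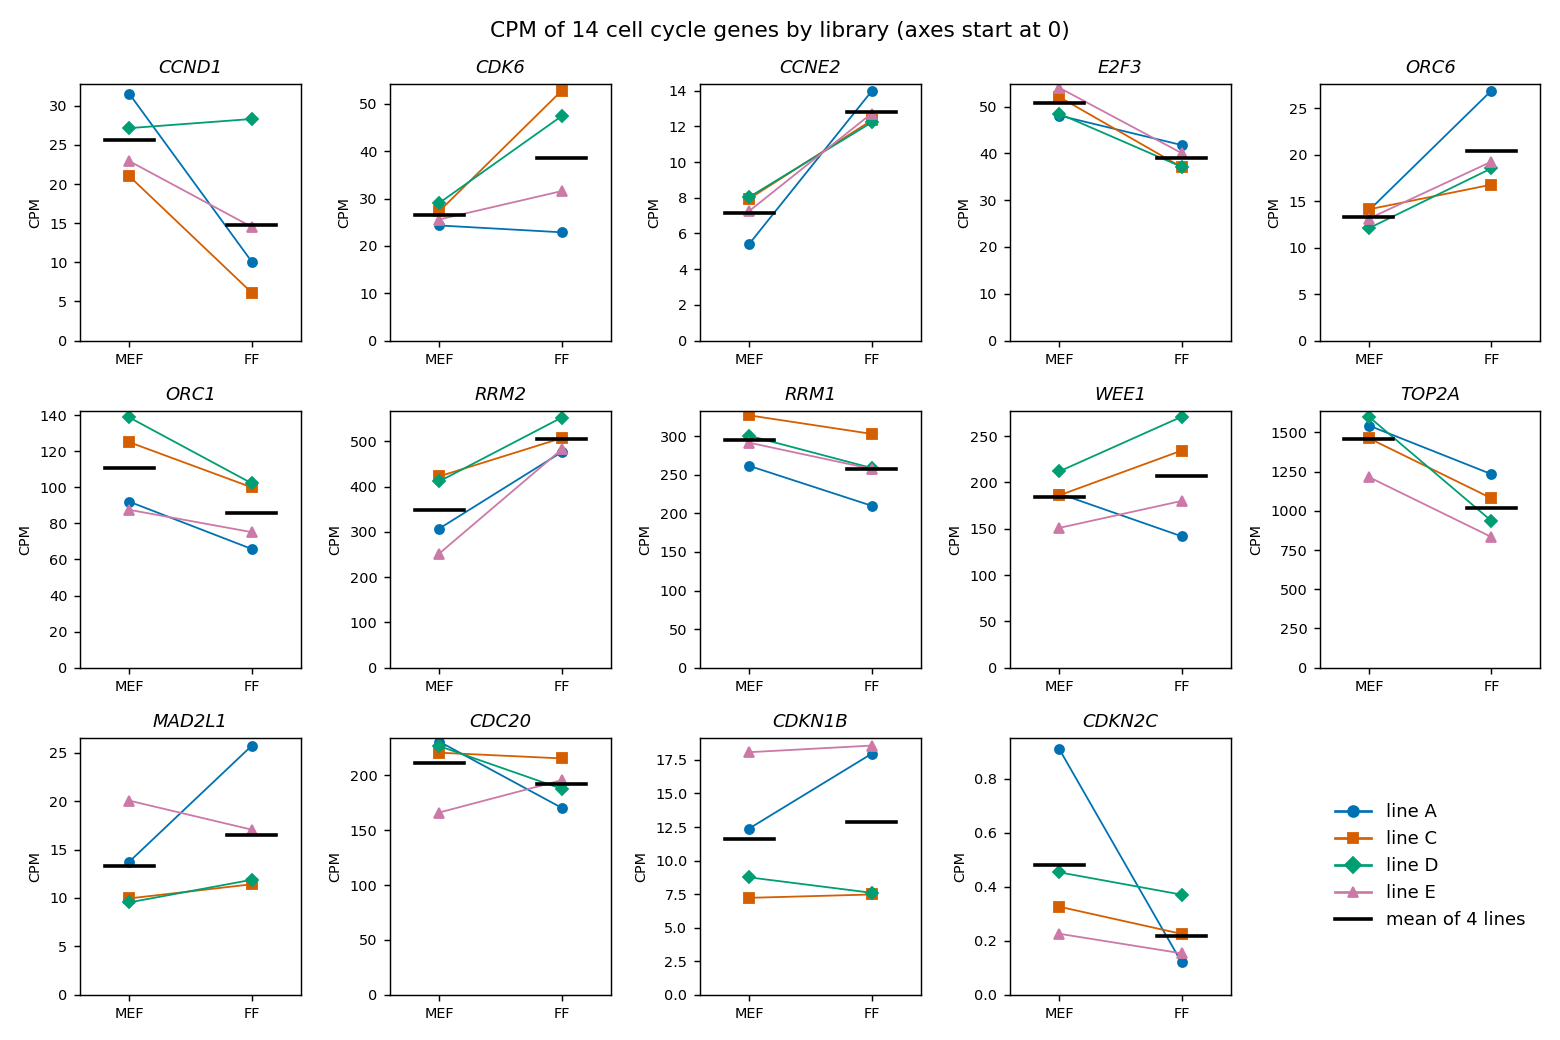
CPM of the 14 genes named with values in every library (vertical axes, each from 0), on MEF and in feeder-free conditions (FF), with a line joining the libraries of each cell line and a black bar at the mean of the 4 lines. CCNE2 and ORC6 are higher feeder-free in each line and E2F3 and TOP2A lower in each, whereas CCND1 is lower in lines A, C and E but not in D.

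The 12 replication licensing genes had a median fold change of 0.08 and differed among themselves in direction. Origin recognition subunit 6, ORC6 (chromosome 18, bases 15013032 to 15021379), had 13.996, 14.1, 12.1 and 13.1 CPM on MEF in lines A, C, D and E and 26.9, 16.8, 18.5 and 19.2 CPM feeder-free. Feeder-free values were all above the MEF values, and line A stood apart as the highest. The mean was 13.3 ± 0.942 CPM on MEF and 20.4 ± 4.48 CPM feeder-free, for a fold change of 0.61 (SE 0.17, interval 0.22 to 1.00, edgeR adjusted p = 0.0879). Paired, it was 0.59 (interval 0.25 to 0.93, adjusted p = 0.0286) and was called. That call was lost without line A (0.47, edgeR adjusted p = 0.0862), without line D (0.116) or without line E (0.0528), and kept without line C (0.0485).

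ORC1, the largest subunit of the complex (chromosome 3, bases 93956277 to 93993701, its span overlapping MIR2285BC and LOC101905708), stood at the other end of the licensing genes. It had 92.0, 125, 139 and 87.5 CPM on MEF and 65.8, 99.97, 102.2 and 75.1 CPM feeder-free in lines A, C, D and E. The level was lower in each line without feeders, though the ranges overlapped because lines C and D were high in both conditions. The fold change was -0.37 (SE 0.20, interval -0.82 to 0.08, edgeR adjusted p = 0.327), and paired it was -0.37 with an adjusted p of 0.0423, short of the fold required.

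The factors that open and close the licensing window lay on the same side of 0. GMNN, the licensing inhibitor, had 96.2, 66.9, 73.1 and 76.6 CPM on MEF and 159.6, 88.7, 102.2 and 107 CPM feeder-free in lines A, C, D and E, with a fold change of 0.55 (edgeR adjusted p = 0.145; paired 0.53, adjusted p = 0.0129). CDC6, a helicase loader, had 16.3, 26.9, 25.8 and 12.2 CPM on MEF and 20.2, 32.8, 37.1 and 24.9 CPM feeder-free, and its paired adjusted p in edgeR was 0.0408. CDT1, the other loader, whose span overlaps APRT, had a fold change of 0.44 (interval -0.18 to 1.06) and differed by 0.11, 0.22, 0.31 and 1.30 in lines A, C, D and E, so that line E carried most of it. All 3 were higher feeder-free in every line.

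The helicase subunits lay nearer to 0. The 6 subunits MCM2 to MCM7 had fold changes of -0.04 to 0.23, with 3 above and 3 below 0 and a median of 0.01. For 4 of the 6 the interval lay within a fold of 1.5, for example MCM6 at -0.04 (-0.38 to 0.30). Summed over the 6 genes, the level was 1778, 2494, 2472 and 1689 CPM on MEF and 1639, 2430, 2478 and 2147 CPM feeder-free in lines A, C, D and E. Lines C and D were above lines A and E in both conditions, and the median within-line difference was 0.32 in line E beside -0.11, -0.02 and -0.05 in A, C and D. The order by line held gene by gene, since C and D were the 2 highest lines for 6 of 6 subunits on MEF and for 6 of 6 feeder-free. Over all genes tested the same 2 lines were the highest for 28.3% on MEF and 25.2% feeder-free. This pair of lines was picked after the values were seen, and the 6 genes share their libraries.

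Of the 4 S phase synthesis genes, 3 stood higher and 1 lower in all 4 lines, and the 2 subunits of ribonucleotide reductase parted. RRM2, the regulated small subunit of the enzyme that makes deoxyribonucleotides (chromosome 11, bases 87488673 to 87495961), had 307, 422, 411 and 252 CPM on MEF in lines A, C, D and E. Feeder-free it had 476, 507, 552 and 482 CPM, above every MEF library. The spread over the lines narrowed from an SD of 82.6 CPM around a mean of 348 CPM on MEF to 34.7 CPM around 504 CPM feeder-free. The fold change was 0.53 (SE 0.18, interval 0.14 to 0.93, edgeR adjusted p = 0.122), and paired it was 0.56 (interval 0.28 to 0.84, adjusted p = 0.0175), just short of the fold required.

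RRM1, the large subunit (chromosome 15, bases 50969957 to 51010317, its span overlapping the pseudogene LOC101904526), had 262, 327, 301 and 292 CPM on MEF and 210.0, 303, 259 and 258 CPM feeder-free in lines A, C, D and E. It was lower in each line by a small amount, with overlapping ranges, and its fold change was -0.20 (SE 0.14, interval -0.51 to 0.11, edgeR adjusted p = 0.459). PCNA, the sliding clamp of the DNA polymerases, had 162, 184, 169 and 138 CPM on MEF and 238, 204, 239 and 223 CPM feeder-free, without overlap. Its fold change was 0.47 (edgeR adjusted p = 0.0740; paired 0.47, adjusted p = 0.0256). TYMS, which makes thymidylate and whose span overlaps ENOSF1, had a fold change of 0.30 (edgeR adjusted p = 0.191) and was higher feeder-free in all 4 lines.

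The 11 genes of G2 and mitotic entry were centred on 0, with a median of -0.02, and none was called. WEE1, the kinase that restrains CDK1 (chromosome 15, bases 43077224 to 43091299), had the highest fold change at 0.17 (SE 0.20, interval -0.29 to 0.62, edgeR adjusted p = 0.696). It had 188, 186, 212 and 151 CPM on MEF and 142, 234, 271 and 180.0 CPM feeder-free in lines A, C, D and E, lower feeder-free in line A and higher in the other 3. The kinase CDK1 and its cyclins had fold changes near 0: CCNB1 had a fold change of 0.12 (interval -0.18 to 0.41), CCNB2 of -0.02 (-0.34 to 0.30), CCNA2 of 0.10 (-0.14 to 0.35) and CDK1 of -0.10 (-0.44 to 0.24). Within the lines CDK1 differed by 0.12, 0.13, -0.39 and -0.28 in A, C, D and E, so that higher and lower lines partly cancelled. AURKA, a spindle pole kinase, was at 75.8 ± 8.02 CPM on MEF and 76.8 ± 3.605 CPM feeder-free. MKI67, the gene of the Ki-67 proliferation antigen, was at 389 ± 24.7 and 339 ± 57.2 CPM, a fold change of -0.20 (interval -0.52 to 0.12). Within the lines MKI67 differed by 0.03, -0.05, -0.42 and -0.41 in A, C, D and E.

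TOP2A, the topoisomerase that untangles sister chromatids (chromosome 19, bases 40627035 to 40653291), stood out at the low end. It had 1544, 1463, 1599.9 and 1215 CPM on MEF in lines A, C, D and E and 1234, 1080.4, 936 and 833 CPM feeder-free. Each line was lower without feeders, by 0.32 to 0.77 on the log2 scale, and the groups overlapped only through line E on MEF and line A feeder-free. The mean was 1456 ± 169.7 CPM on MEF and 1021 ± 175 CPM feeder-free, for a fold change of -0.51 (SE 0.16, interval -0.87 to -0.15, edgeR adjusted p = 0.111). Paired, it was -0.52 (interval -0.76 to -0.28, adjusted p = 0.0142), short of the fold required, and without line A it was -0.59 (adjusted p = 0.0129) and would be called. PLK1, the mitotic kinase polo, whose span overlaps ERN2, was the other gene of this group lower in every line, with 116, 113, 125 and 109 CPM on MEF and 83.5, 103, 101 and 95.7 CPM feeder-free. Its groups did not overlap, and its fold change was -0.27 (edgeR adjusted p = 0.183).

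The 4 spindle checkpoint genes had a median fold change of -0.08 and none was called. MAD2L1, a checkpoint protein that restrains the anaphase-promoting complex (chromosome 15, bases 60615749 to 60616538), is annotated over a span of 790 bases only, so that its counts may share reads with another copy and are uncertain. It had 13.7, 9.95, 9.54 and 20.0 CPM on MEF and 25.7, 11.4, 11.9 and 17.0 CPM feeder-free in lines A, C, D and E, higher feeder-free mainly in line A, with a fold change of 0.31 (SE 0.32, interval -0.42 to 1.04, edgeR adjusted p = 0.638). CDC20, the activator of that complex (chromosome 3, bases 102655153 to 102659116), had 231, 221, 227 and 166 CPM on MEF and 170.3, 215, 188 and 195 CPM feeder-free. Lines A, C and D were lower feeder-free and line E higher, and the fold change was -0.13 (SE 0.14, interval -0.45 to 0.18, edgeR adjusted p = 0.633). The checkpoint kinases BUB1 and BUB1B were at -0.06 (interval -0.43 to 0.30) and -0.10 (-0.41 to 0.20).

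The 4 inhibitors and pocket proteins had a median fold change of -0.03, and none was called. CDKN1B, the inhibitor p27 (chromosome 5, bases 97104364 to 97109547), had 12.4, 7.23, 8.75 and 18.1 CPM on MEF and 18.0, 7.48, 7.60 and 18.6 CPM feeder-free in lines A, C, D and E. Lines A and E stood above lines C and D in both conditions, and its fold change was 0.15 (SE 0.39, interval -0.73 to 1.03, edgeR adjusted p = 0.874). CDKN2C, an inhibitor of CDK4 and CDK6 (chromosome 3, bases 95338363 to 95344318), was the scarcest gene of the list. It had 38, 18, 22 and 10 counts on MEF and 6, 12, 38 and 8 counts feeder-free, or 0.912, 0.327, 0.454 and 0.227 CPM and 0.120, 0.226, 0.371 and 0.154 CPM. It was lower feeder-free in each line, by 2.60 on the log2 scale in line A and by 0.27 to 0.47 in the others, and its fold change of -1.10 (SE 0.58, interval -2.40 to 0.19, edgeR adjusted p = 0.311) was the lowest of the list and the least precise. The pocket proteins RB1 and RBL1, which hold E2F factors in check, had fold changes of 0.14 (interval -0.26 to 0.53) and -0.19 (-0.46 to 0.08).

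**Figure D3:**
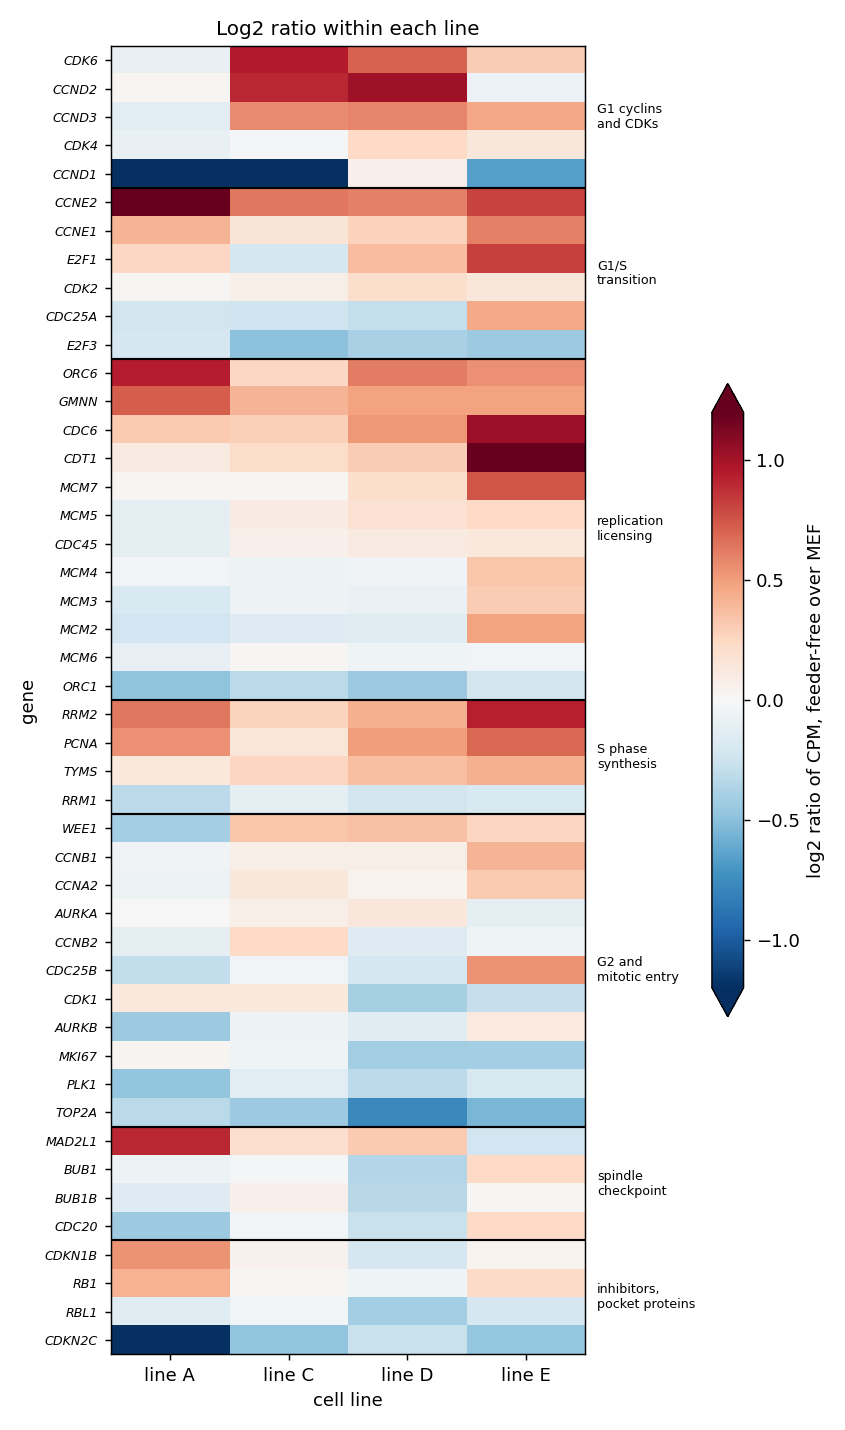
Log2 ratio of CPM, feeder-free over MEF, within each cell line (columns) for the 46 genes (rows, by role group), in red where the feeder-free library was higher and blue where it was lower, with colours ending at the bounds of the scale. CCNE2, ORC6, GMNN, CDC6, RRM2 and PCNA are red in all 4 lines and TOP2A, ORC1 and E2F3 are blue in all 4, while CDK6 and CCND2 are red mainly in lines C and D.

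Set side by side, genes of the G1/S transition, licensing and S phase stood slightly above the genes of G2, mitotic entry and the spindle checkpoint. The 22 genes of the earlier phases had a median fold change of 0.18, with 15 above and 7 below 0, and 11 of them were higher feeder-free in all 4 lines and 3 were lower in all 4. The 15 genes of the later phases had a median of -0.06, with 5 above and 10 below 0, none higher in all 4 lines and 2 lower in all 4. The 46 genes together counted 11 higher in every line (23.9%) and 7 lower in every line (15.2%), against 20.2% and 20.7% of all genes tested. The difference between the medians of the earlier and the later phases was 0.24 in the fit, and 0.13, 0.01, 0.42 and 0.45 within lines A, C, D and E. It was thus seen in lines D and E, small in line A and close to 0 in line C. Lines D and E differed in its make-up: the earlier and later medians were 0.21 and -0.21 in D, and 0.47 and 0.02 in E. The difference between phases carries no test because the genes share their libraries. For 12 of the 15 later genes, and for 8 of the 22 earlier ones, the interval lay within a fold of 1.5.

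Some genes of the same pathways outside the list were called in the paired test but not in the main unpaired test. In that unpaired fit none of the 4 lists held a call. Some alternative unpaired fits did call such genes. GADD45B and GADD45A each passed in 1 of the 8 unpaired edgeR fits with a library left out (adjusted p 0.0420 and 0.0447). Paired, 5.52% of all genes were called higher and 4.53% lower. Of 26 other G1/S regulators tested, the paired edgeR test called 2 higher and 1 lower, and the list's median fold change was 0.12. Of 54 other replication fork genes it called 2 higher and 1 lower (median 0.10), of 56 other mitotic genes none (median -0.04), and of 21 DNA damage checkpoint genes 3 higher (median 0.15). These shares were not tested against that of all genes, since the lists were chosen with earlier results known. At an unadjusted p below 0.05 in the unpaired test, these lists held 4 higher and 2 lower, 5 and 3, 2 and 6, and 4 and 0 genes in that order, beside 10.2% and 11.4% of all genes.

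The called G1/S regulators outside the list were a pair of CDK inhibitors and a cyclin G. CDKN1A, the inhibitor p21, had 6.91, 17.2, 26.7 and 13.3 CPM on MEF and 11.6, 64.5, 67.9 and 26.5 CPM feeder-free in lines A, C, D and E. It was higher feeder-free in every line with most of the rise in C and D, and its fold change was 1.41 (edgeR adjusted p = 0.185; paired 1.26, adjusted p = 0.00343). CDKN2B, the inhibitor p15, had 0, 8, 52 and 6 counts on MEF and 0, 154, 1252 and 54 counts feeder-free, and its paired edgeR adjusted p was 0.00190. Line A had none in either condition, so that the paired value comes from lines C, D and E. CCNG2, an atypical cyclin linked to cell cycle exit, had 47.7, 22.5, 25.4 and 60.3 CPM on MEF and 29.1, 14.3, 10.04 and 19.9 CPM feeder-free, lower in every line, with a fold change of -1.09 (edgeR adjusted p = 0.151; paired -1.08, adjusted p = 0.00524). The inhibitors were highest feeder-free in lines C and D, which again were those with more of the summed fibroblast markers feeder-free, and the part of those markers was not tested.

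The replication genes called outside the list made nucleotides or loaded the clamp. TK1, the thymidine salvage kinase, had 32.6, 50.9, 44.3 and 21.7 CPM on MEF and 46.1, 70.9, 77.3 and 64.2 CPM feeder-free, for a fold change of 0.79 (edgeR adjusted p = 0.123; paired 0.83, adjusted p = 0.0151). DCK, the deoxycytidine salvage kinase, had 192, 128, 137 and 177 CPM on MEF and 105, 111, 78.8 and 98.3 CPM feeder-free, for a fold change of -0.69 (edgeR adjusted p = 0.0607; paired -0.68, adjusted p = 0.0107). The pair of salvage kinases thus differed in opposite directions, with all feeder-free libraries of DCK below all MEF libraries. RFC2, a subunit of the loader that places PCNA on DNA, had 54.5, 77.4, 82.7 and 45.5 CPM on MEF and 91.0, 95.5, 117 and 96.1 CPM feeder-free, for a fold change of 0.62 (edgeR adjusted p = 0.111; paired 0.65, adjusted p = 0.0144). Like PCNA, it was higher feeder-free in every line and without overlap. With a line left out of the paired test, DCK lost its call without line D (edgeR adjusted p = 0.0542) and RFC2 without line E, where its fold change was 0.53.

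The 3 DNA damage checkpoint genes called when paired were stress-induced genes rather than checkpoint kinases. GADD45B had 2.88, 2.65, 3.34 and 1.404 CPM on MEF and 3.07, 6.57, 12.4 and 7.00 CPM feeder-free, with an edgeR paired fold change of 1.41 (adjusted p = 0.0237). GADD45A had 13.1, 10.8, 13.1 and 10.6 CPM on MEF and 12.02, 24.5, 32.8 and 17.5 CPM feeder-free, with an edgeR paired fold change of 0.78 (adjusted p = 0.0434). SFN, the 14-3-3 protein sigma, had 3.74, 2.78, 6.19 and 2.27 CPM on MEF and 3.67, 7.01, 25.1 and 10.04 CPM feeder-free, with 1.39 (edgeR adjusted p = 0.0227). All 3 were close to their MEF level in line A and highest feeder-free in line D. Each kept its paired call only when line A was left out, and without line C, D or E the edgeR adjusted p reached at most 0.104 for GADD45B, 0.191 for GADD45A and 0.108 for SFN. Feeder-free, GADD45A followed the order of the summed fibroblast markers over the lines (A, E, C, D), whereas GADD45B and SFN did not. The part of the markers in these values was not tested.

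**Figure D4:**
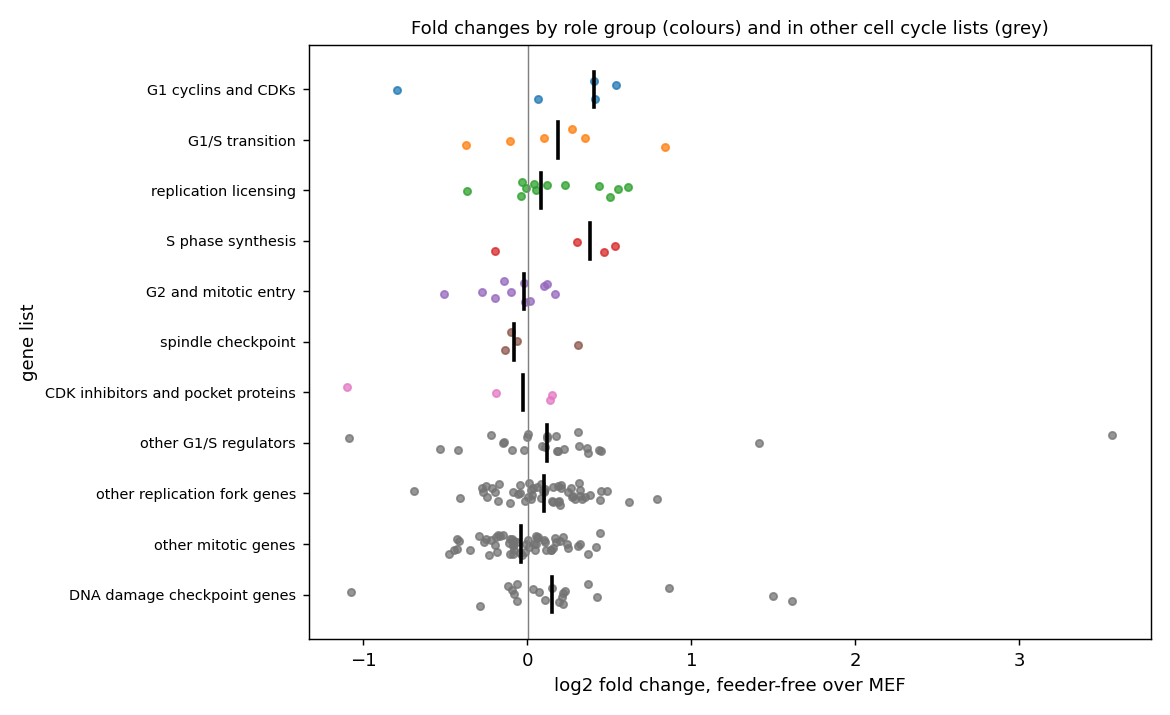
Log2 fold changes (horizontal axis, feeder-free over MEF, unpaired edgeR estimate) of single genes in the 7 role groups of the list (colours) and in 4 other cell cycle lists (grey), with a black bar at each median. Medians run from -0.08 for the spindle checkpoint to 0.41 for the G1 cyclins and CDKs, and the far point at 3.57 is CDKN2B, which rests on few MEF counts.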

How the data were processed

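Poly(A) or total RNA selection is not given in the sources used here. Per the labels, libraries were made with the NEBNext Ultra II kit. The authors trimmed reads with Trimmomatic, aligned them to the bovine genome (ARS-UCD2.0) with STAR, removed optical duplicates with Picard and low-quality alignments with samtools, and deposited raw counts per gene from featureCounts (Subread 1.6.2 in the submitters' processing notes). Their methods also describe removing feeder reads that align to the bovine genome. Whether the deposited counts had this step is not given in the sources used here. Low counts (1 to 20) were even in 69.8% to 75.3% of cases per library, so read ends rather than pairs may have been counted. Strand use is not given, and 14 of the 46 genes overlap another annotated gene. Gene spans came from RefSeq annotation of ARS-UCD2.0, which matched all 46 genes. Levels were not compared between genes, since exon lengths were not used here.

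From the counts, edgeR 4.0.16 (R 4.3.3) kept 15744 genes by filterByExpr, scaled libraries by TMM and fitted the quasi-likelihood test of feeder-free against MEF, with Benjamini-Hochberg adjustment over all genes tested. CPM used TMM-scaled library sizes, and within-line log2 ratios are differences of log2 CPM computed with a prior count of 2. The prior count draws the ratios of scarce genes toward 0, so for CDKN2C they are smaller than the printed CPM give. The 3 genes with blank values were left out. Groups and lines came from the labels, which place all libraries in batch 1. The lines pair the samples, since the same line was sampled in both conditions. Deviations from group means correlated at 0.421 to 0.664 within a line and at -0.523 to 0.249 between lines. The deviations in a group sum to 0, so positive values within lines tend to come with negative ones between lines. No 2 libraries agreed within sampling noise. Alternatives were scaling, filters, DESeq2 1.42.0, limma-voom 3.58.1, the line as a block, and each library or line left out. The test was checked on simulated counts in which 195 of the genes tested were set to change. Unpaired, it recovered 56.9% of them with 0.0% of calls false, and paired 83.6% with 3.55% false. The spread between lines in the simulation was set rather than estimated. The members, role groups and other lists were chosen with earlier results of these data known. Values in every library were given for members called in either fit and for the highest and lowest of each role group, and up to 3 called genes were named from each other list. CCNE1, GMNN, CDC6, PCNA and PLK1 were given in full, and other members named, after their values were seen.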

Additional observations from a re-analysis of the deposited data

Results flagged for a closer look

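In 4 of the 110 sets of 4 libraries tested, 1 library lay farther from the other 3 than Dixon's 95% critical value allows, and chance alone gives about 5.5 such sets. Levels here are log2 CPM. CCND3 was at 4.18 in the feeder-free library of line A, below the other feeder-free libraries at 4.94 to 5.02. TYMS was at 6.91 in the MEF library of line A, where the other MEF libraries were at 7.05 to 7.07. BUB1B was at 7.40 in the feeder-free library of line C, above the others at 7.02 to 7.06. CDC20 was at 7.38 in the MEF library of line E, below the others at 7.79 to 7.85.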

How the results depend on the processing

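Counts of the 46 genes called depended on pairing, the fold threshold and the lines included. The unpaired test called 1 higher and 0 lower. With the replicate block it called 2 higher and 1 lower, and pairing changed no other call among the members. The block gave 2 and 1 with RLE size factors, 3 and 1 without scaling (RRM2 joining CCNE2 and ORC6), and 6 and 4 with no fold threshold. Of 15744 genes tested, the same fits called 910 and 676, 1013 and 595, and 1207 and 1279 in that order. With a line left out of the block, the calls were 2 higher (CCNE2, CDK6) and 1 lower (TOP2A) without line A, 4 higher (CCNE2, ORC6, PCNA, RRM2) and 0 lower without line C, 1 higher (CCNE2) and 1 lower (CCND1) without line D, and 1 higher (CCNE2) and 0 lower without line E. Over all genes tested these fits called 918 and 733, 561 and 496, 376 and 366, and 662 and 497 in that order. Unpaired, 0 were called higher without scaling or without the low-count filter, where CCNE2 had adjusted p of 0.0566 and 0.0649, and DESeq2 called 2 (CCNE2, ORC6), while DESeq2 and limma-voom called 0 lower. Without any 1 library, 0 were called in each of the 8 edgeR fits, with 6 to 9 higher at an unadjusted p below 0.05. Most of those fits called at most 1 higher and 5 lower over all genes tested, but 259 and 231 with line A's feeder-free sample dropped. CDKN1B (0.15) changed sign among fold changes near 0: it ran from -0.071 to 0.45 with a library left out, negative without MEF line C (-0.019), feeder-free line A (-0.050) or line E (-0.071), and was -0.040 in the block without line A. Of the 14 genes named by rule, no other changed direction, and other members were not followed gene by gene. The difference between earlier and later phases ranged from 0.15 to 0.32 over the 24 alternatives. CDKN2B could not be tested in the block without line D. With 4 lines, a few scarce genes such as CDKN2C are limited by counts.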
